A study of Mus musculus with 28 samples.

Results

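The regions described here were the distal DNase I hypersensitive sites (DHSs) that were open in all 4 culture conditions of a study of Th9 differentiation. They were selected on the DNase-seq peak calls themselves. Peaks of the 4 lists that shared at least 1 bp were merged into 50176 regions, and a region was kept when it held a peak in every list and lay more than 1 kb from every protein-coding transcription start in the mm9 annotation. Of 36623 distal regions, 11818 met the rule, which is 32.3%, and a further 9881 regions with a peak in all 4 lists lay at promoters. Presence in all lists, distance from a start and fold enrichment were used to choose and order the members, so those values are given as descriptions and none of them was tested.

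The study asked which regulatory DNA responds when CD4+ T cells become IL-9-producing Th9 cells. All cells came from young adult C57BL/6 mice of both sexes that carried loxP-flanked *Tgfbr1* and a tamoxifen-inducible Cre (Tgfbr1 f/f Ert2-cre+). Mice given oil kept TGF-β receptor I and are called WT, and mice given tamoxifen are called KO. The promoter that drives the Cre is not given in the sources used here, and the peak lists do not show whether *Tgfbr1* had been deleted. Naïve CD4+ CD62L+ T cells from spleen and lymph nodes were stimulated with anti-CD3 and anti-CD28 either without added cytokine (control) or with TGF-β1 and IL-4 (TGF-β + IL-4). DNase-seq gave 1 library per condition, so no value below has a replicate check and differences between conditions cannot be told apart from differences between libraries. The libraries are labelled WT3 or KO3, and what the 3 stands for is not given in the sources used here. The lists held 44298 peaks for WT control, 33880 for WT TGF-β + IL-4, 33665 for KO control and 27145 for KO TGF-β + IL-4. Values for the 4 libraries are given below in that order.

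DNase I cuts chromatin where nucleosomes have been displaced by bound proteins, so a DHS marks a promoter, an enhancer, an insulator or another bound element. Distal DHSs of T cells are known to hold sites for RUNX, ETS and TCF/LEF factors, which set the T lineage, for AP-1, which is brought to DNA after T cell receptor and CD28 signalling, and for CTCF, which anchors chromatin loops in most cell types. TGF-β signals through Smad2 and Smad3, and IL-4 signals through Stat6.

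The best-ranked member with an exact match to each of 8 motifs is shown as an example, which need not be typical of the members. The match is in capitals within 25 bases on either side, read on the plus strand of mm9, so that some matches appear as the reverse complement of the motif.

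Gm15319 CTCF core: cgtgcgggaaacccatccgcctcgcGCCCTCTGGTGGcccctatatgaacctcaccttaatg
Chd8 ETS: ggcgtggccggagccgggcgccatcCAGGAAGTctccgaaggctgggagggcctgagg
Pak3 RUNX: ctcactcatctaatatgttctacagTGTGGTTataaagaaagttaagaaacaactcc
Zfp869 AP-1: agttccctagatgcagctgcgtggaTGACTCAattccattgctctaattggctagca
Rapgef4 TCF/LEF: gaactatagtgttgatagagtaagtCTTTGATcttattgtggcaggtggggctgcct
Lrfn3 GATA: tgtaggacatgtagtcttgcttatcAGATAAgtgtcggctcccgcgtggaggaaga
Samd9l STAT: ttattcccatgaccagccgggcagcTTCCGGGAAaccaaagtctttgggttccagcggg
Ier5l IRF: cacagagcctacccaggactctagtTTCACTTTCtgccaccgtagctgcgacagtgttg

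These stretches lay at chr8:20020423-20020484, chr14:52877511-52877568, chrX:139917621-139917677, chr8:72240885-72240941, chr2:71779700-71779756, chr7:31158716-31158771, chr6:3151559-3151617 and chr2:30319695-30319753. All 8 of the regions were intergenic, and each is named by its nearest protein-coding gene, a naming by position that carries no statement about regulation. The centres of the matches lay at 55.5, 6.5, 45, −80, 88, 32.5, 87 and 96 bp from the summit. In the *Gm15319* region 52.4% of the 32-base words around the summit also occur elsewhere in mm9.

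The second set comes from genes of T cell and cytokine biology. It shows a CTCF core upstream of *Runx3*, a T lineage transcription factor, a TCF/LEF match upstream of *Ifng*, which encodes the Th1 cytokine IFN-γ, a STAT match downstream of *Cish*, an inhibitor of cytokine receptor signalling that STAT5 induces, and a GATA match in an intron of *Tgfbr2*, which encodes the other chain of the TGF-β receptor.

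Runx3 CTCF core: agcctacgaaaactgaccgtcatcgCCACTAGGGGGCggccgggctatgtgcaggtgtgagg
Ifng TCF/LEF: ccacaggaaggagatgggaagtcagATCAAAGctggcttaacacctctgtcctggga
Cish STAT: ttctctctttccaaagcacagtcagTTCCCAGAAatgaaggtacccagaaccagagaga
Tgfbr2 GATA: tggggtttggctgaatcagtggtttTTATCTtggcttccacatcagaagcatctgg

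They lay at chr4:134622810-134622871, chr10:117856273-117856329, chr9:107215322-107215380 and chr9:116062150-116062205.

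*Il9*, the cytokine gene that defines Th9 cells, had 1 member, at chr13:56578011-56578566. Its summit lay 5332 bp downstream of the start, between genes. The stretch of 100 bases on either side of its summit, chr13:56578175-56578375, are printed with the RUNX match, the AP-1 match and the E-box (CAGGTG, bound by E proteins and ZEB factors) in capitals, all read on the plus strand.

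Il9 member: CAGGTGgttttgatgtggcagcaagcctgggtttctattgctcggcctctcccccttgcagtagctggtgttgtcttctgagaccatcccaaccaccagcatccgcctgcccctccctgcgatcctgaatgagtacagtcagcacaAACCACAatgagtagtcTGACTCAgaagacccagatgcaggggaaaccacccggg

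The *Il9* member had a fold enrichment over local background of 13.3, 9.02, 8.33 and 6.85. Fold enrichment depends on the depth and background of each library, so ranks within a list are used to set lists side by side, on a scale where 0% is the strongest peak and 100% the weakest. A rank in percent depends in turn on the number of peaks in its list, which was largest in WT control. On that scale the *Il9* member stood at 2.87%, 13.8%, 10.8% and 21.3%, place 497 of 11818 by the mean of its 4 ranks. It ranked best in WT control, as did 6272 members (53.1%), against 20.8%, 17.8% and 8.32% that ranked best in the other lists. With TGF-β + IL-4 it ranked lower than in control in both genotypes, by differences of −10.9 points in WT and −10.6 in KO, where the median differences over all members were −7.45 and −6.12. The reads piled up at its summit, recovered from the deposited fold and p, numbered 96, 67, 66 and 46, with exact Poisson 95% intervals of 77.8 to 117, 51.9 to 85.1, 51 to 84.0 and 33.7 to 61.4 that cover counting error only.

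The members were narrow. Their median width was 434 bp, with 90% of them between 325 and 806 bp, and together they covered 5.70 Mb. More than 1 peak of the same list fell within a member in 1.22% to 1.83% of cases, so a member was nearly always a single peak in each library. Between genes lay 6470 members (54.7%) and in introns 4923 (41.7%), whereas 213 had their summit in a coding exon and 212 in a UTR. The nearest protein-coding start was a median of 18840 bp away and at most 1207379 bp, and 48.1% of members lay 10 to 50 kb from it. A further 815 members (6.90%) lay within 1 kb of the start of some other annotated transcript, so that part of them may be promoters of non-coding RNAs or of unlisted transcripts.

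In base composition the members stood between promoters and distal regions found in 1 list. Median GC content within 100 bp of the summit was 50.7% in members, 63.7% in promoter regions found in all lists and 47.3% in distal regions found in 1 list. The median ratio of observed to expected CpG was 0.299, 0.820 and 0.209 in the same classes. Members with a ratio above 0.6, as in CpG islands, numbered 1548 (13.1%), but they made up 45% of the 200 best-ranked members. Members were densest on chromosome 11, at 7.63 per Mb, and sparse on chromosome X, at 0.93 per Mb.

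Members took up 27%, 35.5%, 35.7% and 44.2% of the peaks of the 4 lists, so their share was higher in shorter lists. Their median fold was 6.98, 5.64, 4.99 and 4.79 and their median rank 32.8%, 43.2%, 43.4% and 52.4%. Promoter regions found in all lists ranked better, with medians of 16.6%, 19%, 19% and 23.7%. In the strongest 10% of each list stood 1008, 441, 397 and 335 members, where promoter regions held 76.7% to 88.2% of the peaks. The members filled the middle of each list instead: when each list was cut into 10 groups by fold, their share was highest in group 3 in WT control (52%), in group 4 in both WT TGF-β + IL-4 (56.8%) and KO control (56.1%) and in group 5 in KO TGF-β + IL-4 (60.3%), counted from the strongest. Over the 11818 members, Spearman's rho of ranks between any pair of lists was 0.614 to 0.680, a description over regions that share library depth and base composition.

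**Figure D1:**
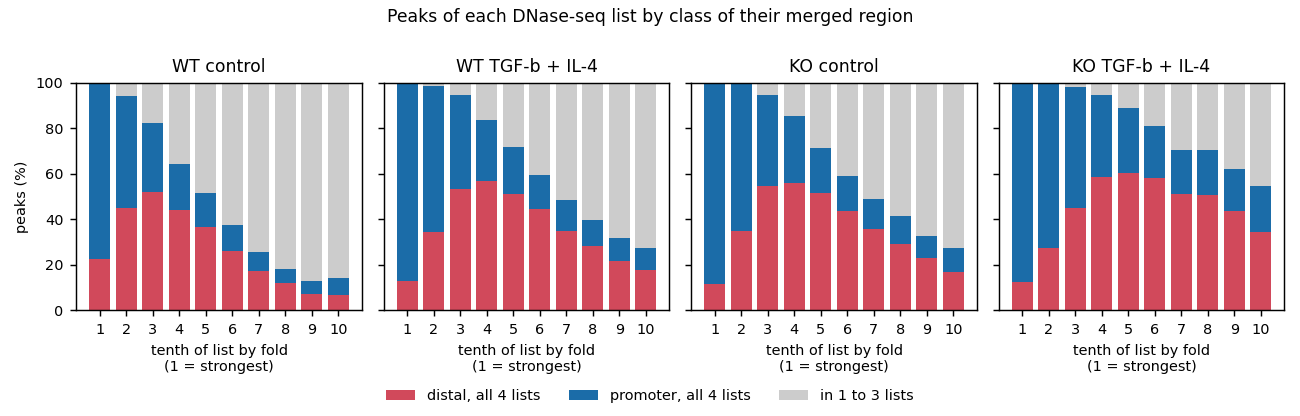
Share of peaks (%) by class of merged region in 10 equal groups of each list, ordered by fold enrichment with 1 the strongest. Distal members are red, promoter regions in all lists blue and regions in 1 to 3 lists grey. Promoter regions held 76.7% of the strongest group in WT control and members 22.8%, and members were most frequent in groups 3 to 5.

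None of the 20 strongest members was nearest to a gene of the T cell and cytokine lists used below. The best-ranked was an intergenic region at chr3:5860477-5860913, at −284470 bp from *Pxmp3*, with a fold of 26.1, 25.4, 23.1 and 24.6, followed by chr6:3151303-3151707 near *Samd9l* and chr9:35112667-35113241 near *Gm5614*. Of the 20 best-ranked members, 17 (85%) had in their window at least 1 word of 32 bases that occurs elsewhere in mm9, against 9.76% of all members, and in 5 (25%) over 50% of the words were repeated, against 1.30%. An extreme was the member near *H2-M10.4* on chromosome 17, in which all words were repeated, with a median of 95 copies. How far reads from other copies add to these peaks was not tested. The 3 of the 20 with no repeated word lay at +88653 bp from *Axin2*, a Wnt pathway inhibitor, at chr11:108872824-108873474 (fold 19.8, 17.3, 17.5 and 18.2), in an intron of *Mrps27*, a mitochondrial ribosomal protein gene, at chr13:100122985-100123566 (16.6, 15.6, 12.2 and 12.3), and in an intron of *Kctd16* (19, 15.6, 14 and 16.8). The rest of the 20 were nearest to *Pak3*, *1700012B15Rik*, *Cdk8*, *4930468A15Rik*, *Filip1l*, *Satl1*, *Limd1*, *4930546C10Rik*, *Cdk5rap2*, *Chl1*, *Cr2*, *Dpy19l1* and *Gm15319*, with mean ranks of 0.011% to 0.25%.

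Matches of the CTCF core, AP-1, RUNX and ETS set the members apart from promoters more than from other distal sites. Exact matches were counted on both strands within 100 bp of the summit of a member's strongest peak, and the share of all 50176 regions with a match is given beside each. The CTCF core was found in 1261 members (10.7%), in 5.82% of distal regions found in 1 list, in 1.47% of promoter regions found in all lists and in 6.88% of all regions. A shorter and less specific form of the CTCF site was found in 23.1%, 15.9%, 21.9% and 20.2% of the same classes, so it did not set members apart from promoters. AP-1 (TGAGTCA) was found in 1788 members (15.1%), against 17%, 3.27% and 12.5%. RUNX (TGTGGTT) was found in 1387 members (11.7%), against 11%, 3.00% and 9.24%, and ETS (CAGGAAGT) in 913 (7.73%), against 5.97%, 3.44% and 6.04%. Distal regions found in 3 lists held the CTCF core in 11.4%, AP-1 in 13.4%, RUNX in 11.6% and ETS in 8.17%. The CTCF core and ETS were thus not more frequent in the members than in that class. Of the 8 motifs shown above, the CTCF core had the highest ratio of the share in members to that in distal regions found in 1 list, 1.83, whereas AP-1, the GATA motif searched as AGATAA (7.89% against 9.89%) and IRF (GAAANNGAA, 9.05% against 10.9%) were less frequent in the members than in distal regions found in 1 list. TCF/LEF (CTTTGAT) was found in 4.91% of members and 5.18% of those regions. Over all regions the shares were 4.12% for TCF/LEF, 7.36% for GATA and 8.61% for IRF.

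Motifs of CpG-rich promoters were rare in the members but more frequent than in distal regions found in 1 list. SP (GGGGCGGGG) was found in 2.55% of members, 1.11% of distal regions found in 1 list and 19% of promoter regions. NRF1 (GCGCATGCG) was found in 0.63%, 0.089% and 4.11%, CRE (TGACGTCA), which binds CREB and ATF factors, in 1.02%, 0.35% and 3.91%, and the GC form of the ETS site (CCGGAAGT) in 1.45%, 0.56% and 8.48%. The 74 members with an NRF1 match had the best median rank of the 24 motif groups in every list, median ranks of 18.6%, 22.4%, 22.7% and 25.7%. Motifs tied to the study's cytokines and factors stood at shares close to those of distal regions found in 1 list or were rare. STAT (TTCNNNGAA) was found in 8.12% of members and 8.51% of distal regions found in 1 list, the SMAD palindrome (GTCTAGAC) in 19 members (0.16%) and 0.23%, the PAR bZIP site of DBP (TTANGTAA) in 1.26% and 1.72%, and the E2F site (TTTCCCGC) in 0.26% and 0.13%. Over all regions the shares were 5.61% for SP, 1.04% for NRF1, 1.26% for CRE, 2.35% for the GC form of the ETS site, 7.27% for STAT, 0.23% for SMAD, 1.34% for the PAR bZIP site and 0.51% for E2F. None of the 8 motifs shown above was found in 5191 members (43.9%), and 1944 (16.4%) held at least 2 of them.

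The matches were placed around the summit in ways that differed between motifs. The CTCF core lay within 50 bp of the summit in 10.4% of members, and only 0.36% had one at 50 to 100 bp and 0.093% at 450 to 500 bp. AP-1 declined more slowly, from 10.2% within 50 bp to 5.92% at 50 to 100 bp and 1.58% at 450 to 500 bp, and RUNX went from 7.56% to 2.42% and ETS from 5.04% to 0.75% between the nearest and the farthest of these bins. GATA matches showed the opposite course, with 3.22% of members within 50 bp and 5.56% at 450 to 500 bp. Promoter regions showed a smaller difference for AP-1 (2.03% and 1.11%) or RUNX (1.73% and 1.68%).

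**Figure D2:**
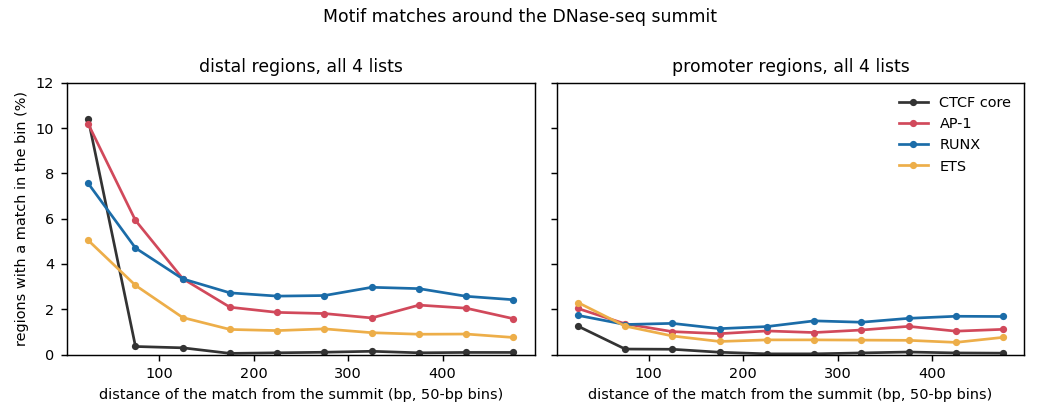
Share of regions (%) with an exact match in each 50-bp bin of distance from the summit, for distal members (left) and promoter regions in all lists (right). In members the CTCF core was at 10.4% next to the summit and 0.36% in the next bin, and AP-1 at 10.2% and 5.92%.

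Which members were strong depended on the library, and AP-1 varied most. The members were divided in each list into 5 groups of 2363 or 2364 by fold. In the strongest group an AP-1 match was found in 23.4%, 12.8%, 17.7% and 19.5% of members, in the order of libraries given above. In the weakest group the shares were 8.16%, 18.4%, 12.4% and 12.7%. AP-1 matches were therefore more frequent in strong than in weak members in 3 of the 4 libraries and less frequent in WT TGF-β + IL-4. The CTCF core was found in 8.29%, 9.60%, 12.4% and 10.3% of the strongest group and 8.59%, 6.68%, 5.46% and 5.84% of the weakest. RUNX was more frequent in the strongest group of both WT libraries (13.5% and 13.7%, against 9.2% and 9.1% in the weakest) and about equal in both KO libraries (11.8% and 12.3%, against 12% and 11.9%).

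**Figure D3:**
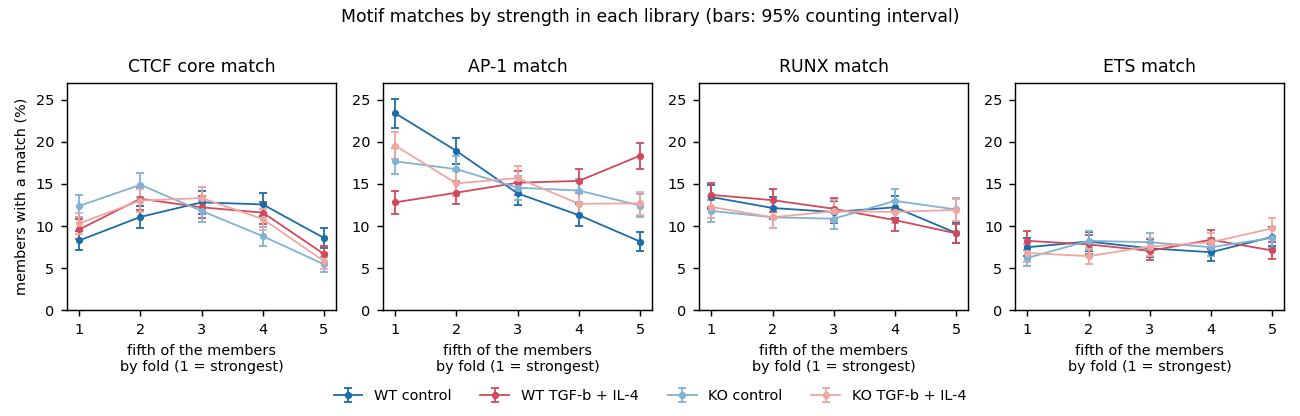
Share of members (%) with a CTCF core, AP-1, RUNX or ETS match in 5 groups by fold within each library, 1 the strongest. Points are shares of 2363 or 2364 members and bars a 95% counting interval by the normal approximation. AP-1 went from 23.4% to 8.16% in WT control and from 12.8% to 18.4% in WT TGF-β + IL-4.

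The same was seen when members were ordered by their rank difference between lists. Most members ranked lower with TGF-β + IL-4 than in control, with a median difference of −7.45 points in WT and −6.12 in KO, and lower in KO than in WT, with a median difference of −8.04 points in control and −6.12 with TGF-β + IL-4 (negative means ranked lower). A rank in percent depends on the length of its list. The median rank of members was 32.8% in WT control, the longest list, and 52.4% in KO TGF-β + IL-4, the shortest. In WT TGF-β + IL-4 and KO control, lists of similar length, it was 43.2% and 43.4%. The median differences therefore do not show a general loss of strength, and each difference is read against them. How much of them comes from list length was not tested. Among the 2364 WT members that ranked most below their control position, 26.9% had an AP-1 match (exact binomial 95% interval 25.2 to 28.8, counting error only), against 4.82% (3.99 to 5.76) of the 2364 that ranked most above it. In KO the corresponding shares were 15% (13.6 to 16.5) and 16.1% (14.6 to 17.6). Between genotypes the AP-1 share went in opposite directions in the 2 cultures: among members ranked most below their WT position it was 19.2% in control and 9.35% with TGF-β + IL-4, and among those most above it 8.71% and 23.1%.

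Other motifs of activated T cells differed in the same comparison of the WT lists, from smaller numbers. In the members ranked most below and most above their control position, NF-kB (GGGANTTTC) was found in 2.58% and 0.63%, NFAT (TGGAAAA) in 6.47% and 3.43% and the IRF-AP-1 composite site, bound by BATF with JUN and IRF4, in 1.35% and 0.17%. The composite site contains the whole AP-1 site, so each of its matches is also an AP-1 match and is not a separate observation. Over all regions these 3 motifs were found in 1.36%, 4.5% and 0.57%. The 1788 members with an AP-1 match had median ranks of 25%, 46.5%, 40.0% and 48.2%, and the 84 with the composite site 23%, 44.1%, 38.9% and 42.9%. Both groups, the second of which is part of the first, stood in the stronger part of the WT control list. In the list from WT cells with TGF-β + IL-4 they stood near the middle. CTCF core matches differed most between the control libraries, at 15.7% (14.3 to 17.3) of members ranked most above their WT position in KO and 5.29% (4.42 to 6.27) of those most below. RUNX was lower among members ranked above their WT position in KO, in control (8.84% against 15.1%) and with TGF-β + IL-4 (9.69% against 14.1%), and ETS likewise with TGF-β + IL-4 (5.67% against 10.5%). In control this was not particular to RUNX. IRF (6.51% against 12.2%), STAT (6.85% against 10.8%), GATA (7.32% against 10.8%) and TCF/LEF (3.60% against 6.35%) were also lower. The E-box CAGGTG (20.3% against 17.7%) went the other way, like the CTCF core. Median GC content of these groups in control was 51.7% and 48.3%.

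A strong member has more room to lose rank than a weak one, so members of like starting rank were set side by side. Among the 2364 members strongest in WT control, the 553 with an AP-1 match had a median rank of 10.5% there and 27.6% in WT TGF-β + IL-4, and the 1811 without went from 11.3% to 19.3%. In all 5 groups by starting rank the members with an AP-1 match had a lower rank after TGF-β + IL-4 than those without, by 8.29 to 11.4 points. In KO TGF-β + IL-4 the corresponding differences were −0.88 to −3.97 points, where a negative value means that members with a match stood higher. Base composition moved with these groups: the median GC content of the members ranked most below their control position in WT was 48.8%, and of those most above it 51.2%. Within 4 bins of GC content the AP-1 shares were 34.5% and 4.81% below 45% GC, 31.3% and 3.95% at 45 to 50%, 26.5% and 5.67% at 50 to 55% and 13.7% and 4.16% above.

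**Figure D4:**
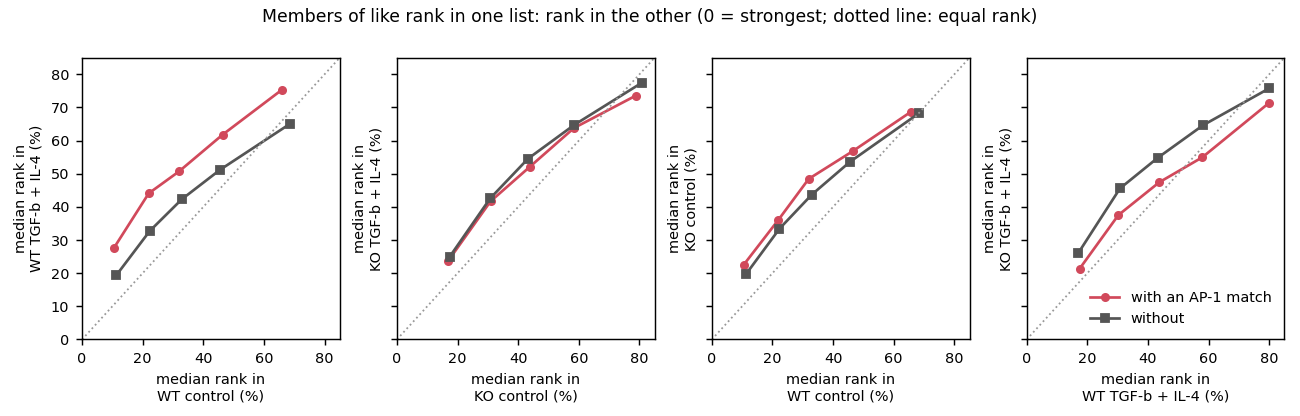
Median rank (%, 0 the strongest) in the second list of each pair against median rank in the first, for members with (red) and without (grey) an AP-1 match, in 5 groups by rank in the first list. In the WT panel the red points lie 8.29 to 11.4 points from the grey, on the weaker side, and in the KO panel the differences are −0.88 to −3.97 points, on the stronger side.

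AP-1 was also unequal among distal regions outside the rule. These are other regions than the members but come from the same 4 libraries and peak calls, so they are not independent of the values above. Among distal regions called in 1 list only, an AP-1 match was found in 22% of the 8121 of WT control, 4.82% of 2053, 8.64% of 1436 and 11.8% of the 711 of KO TGF-β + IL-4. In the strongest group of promoter regions found in all lists it was 1.97% to 2.28% in every library.

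Single sites were also named by rank differences that had the same sign in both genotypes, unlike the AP-1 difference above, which was seen in WT. Sites ranked lower with TGF-β + IL-4 in both genotypes were named by the smaller of the WT and KO differences, and 4 of the first 5 had an AP-1 match, which is printed here because it is the feature that they shared. The share was 15.1% of all members.

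Ccnb1 AP-1: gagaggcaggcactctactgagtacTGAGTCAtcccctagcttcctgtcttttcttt
Tet2 AP-1: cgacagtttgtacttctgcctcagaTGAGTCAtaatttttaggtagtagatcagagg
Acap2 AP-1: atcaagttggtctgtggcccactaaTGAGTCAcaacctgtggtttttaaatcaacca
Gm10955 AP-1: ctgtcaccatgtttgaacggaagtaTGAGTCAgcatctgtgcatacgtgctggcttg

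These stretches lay at chr13:101575848-101575904, chr3:133289744-133289800, chr16:31234339-31234395 and chr3:136604140-136604196.

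The member near *Ccnb1*, which encodes cyclin B1, lay in an intron of *Slc30a5* and ranked at 19.7%, 80.0%, 32.1% and 90.4%, with 35, 16, 29 and 14 reads at the summit. At −82376 bp from *Tet2*, which encodes a DNA demethylating enzyme, the ranks were 18.4%, 73.8%, 32.1% and 85.6%, with 44, 17, 29 and 16 reads. At −32959 bp from *Acap2* they were 13.6%, 79.5%, 28.5% and 80.1%, with 77, 24, 55 and 24 reads. Both control libraries were on the strong side and both cytokine libraries on the weak side for each of these sites, and likewise for the members near *Gm10955* (24.5%, 73.8%, 32.9% and 85.6%) and *Gm10797* (29.7%, 82%, 32.5% and 81.4%). In all, 441 members ranked over 25 points lower with TGF-β + IL-4 in both genotypes and 34 over 25 points higher. After the median difference over all members was subtracted in each genotype, a step chosen after seeing the data, the counts were 193 and 92. An AP-1 match was found in 58 of those 193 members (30.1%) and 7 of the 92 (7.61%). Both groups, like the named sites, were chosen partly on the WT difference. In WT alone the AP-1 shares most below and most above control were 26.9% and 4.82%, and in KO alone 15% and 16.1%. The shares in the chosen groups therefore do not show an AP-1 difference in KO.

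Among the sites ranked higher with TGF-β + IL-4, the first was intergenic, at chr1:140200651-140201478 and +30600 bp from *Atp6v1g3*, a subunit gene of the vacuolar proton pump. Its ranks were 93.7%, 37.4%, 93.1% and 41.9%, with 25, 46, 24 and 33 reads. An intronic site of *Zfp644*, a zinc finger gene, stood at 75.8%, 23%, 86.1% and 45.3%, and sites near *Gm10293* and *Vrk1*, a nuclear kinase gene, at 67.7%, 25.8%, 91.2% and 29.4% and at 96.1%, 55.5%, 95.2% and 46.8%. The last of the 5, in *B2m*, is taken up below with other exonic members.

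Between genotypes, 31 members ranked over 25 points higher in KO than in WT in both cultures and 519 over 25 points lower, and 101 and 208 did so after the median differences were subtracted. The counts were thus less unequal after the median difference of each culture was subtracted. The rank differences varied widely between members, so the same subtraction for every member need not take out the effect of list length. Whether the remaining counts are free of that effect was not tested. The same limit holds for the counts with TGF-β + IL-4 above. An intronic site of *Msi2*, which encodes an RNA-binding protein of progenitor cells, stood at 89.2%, 91.5%, 35.7% and 36.9%, with 16, 14, 34 and 23 reads. The others were near *Nek10*, in a UTR of *Rab23* with *Bag2* nearest, near *Gm15319*, where 83.5% of words were repeated, and again in *B2m*. Of those ranked lower in KO, an intronic site of *Plxdc1* stood at 30.3%, 30.7%, 86.6% and 94.3% (36, 35, 27 and 19 reads), and a site at −12449 bp from *Traf3ip3*, a lymphocyte signalling gene, at 23.8%, 41.3%, 81.7% and 95.9%. Sites near *BC026590*, *Ankrd44* and *Hipk2*, a nuclear kinase gene, completed the 5, and that near *Hipk2* had a RUNX match. At the other extreme, 988 members stayed within 10 points in all 4 lists.

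**Figure D5:**
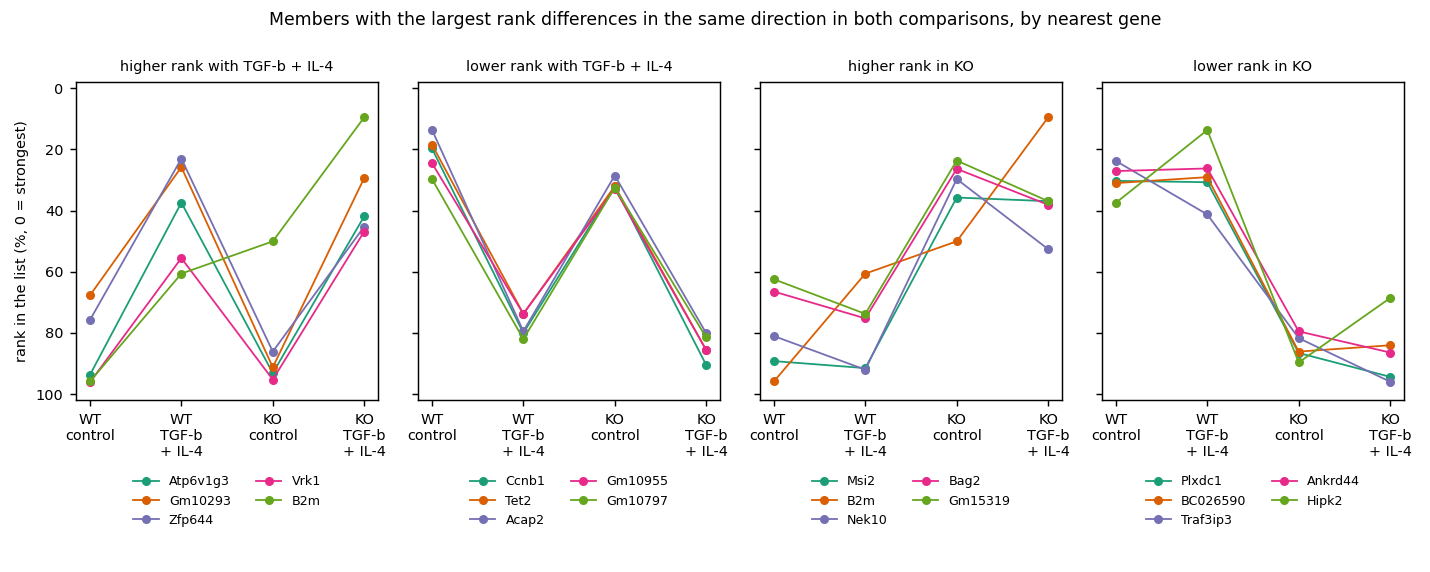
Rank in each list (%, 0 the strongest, at the top) of the 5 members with the largest rank difference of the same sign in both genotypes (left panels) or both cultures (right panels), named by nearest gene. The member near *Atp6v1g3* stood at 93.7% and 93.1% in control and at 37.4% and 41.9% with TGF-β + IL-4.

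Members whose summit lay in an exon of a very highly expressed gene behaved as a group apart. The expression levels used here are RPKM, read counts scaled to gene length and library size, and each gene's level is its median over all 24 RNA-seq libraries of the series. These include the cultures with TGF-β alone and with IL-4 alone. The RNA-seq columns were pooled because the headings of several disagree with read counts of the same libraries. There were 8 such members in genes of at least 500 RPKM (a limit chosen after the values were seen). Their median ranks were 92.2%, 82.3%, 71.3% and 38.6%, and 7 of the 8 ranked best in KO TGF-β + IL-4, as did 983 (8.32%) of all members. The exception lay in a UTR of *Ccr7*, the lymph node homing receptor gene. The *B2m* member, in a coding exon of the gene for β2-microglobulin at chr2:121976510-121976978, stood at 95.9%, 60.6%, 50.1% and 9.54%, with 44, 58, 72 and 126 reads. A UTR member of *Tmsb4x*, which encodes the actin-binding thymosin β4, stood at 24%, 21.6%, 8.65% and 0.24%, and a UTR member of *Actb*, the β-actin gene, at 53.4%, 44.3%, 30.5% and 16.6%, with 118, 124, 153 and 227 reads. The members in *Rplp0*, *Ldha*, *H2-K1* and a coding exon of *Actb* also ranked best in KO TGF-β + IL-4. Exonic members in genes of lower RPKM had medians of 51.9% to 61.7% in KO TGF-β + IL-4, and of the 9 intronic members in genes of at least 500 RPKM none ranked best there. Whether fragments derived from RNA or transcription through these exons add to the signal was not tested.

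By nearest start, the members were assigned to 6000 of 22238 protein-coding genes, which is 27%. The RPKM table matched the labelled cell type: the summed level of 8 T cell markers was 1346 to 1817 RPKM over the libraries, that of 6 B cell markers 8.16 to 34.1, that of 5 myeloid markers 0.23 to 18.2, that of 2 NK cell markers 0.56 to 5.35 and that of 2 CD8 T cell markers 14.3 to 36.3. Below 1 RPKM in every library were 2 of the 6 B cell markers, the factors *Pax5* and *Ebf1*, and 4 of the 5 myeloid markers, *Csf1r*, *Itgam*, *Cd14* and *Cebpa*, but none of the NK or CD8 markers. The part of other cell types in the peaks was not tested. Genes with members were expressed at higher levels: the median was 0.091 RPKM for 13788 genes without a member, 1.76 with 1 member, 3.48 with 2 to 4, 5.83 with 5 to 9 and 8.10 with 10 or more. Genes with more members also own more of the genome, since a gene's territory (all positions nearest to its start) had a median of 39 kb without a member and 361 kb with 10 or more. Per Mb of territory there were 1.69 members at genes below 0.1 RPKM, 4.99 at 0.1 to 1, 8.36 at 1 to 10, 9.80 at 10 to 100 and 12.4 at 100 or more, against 4.45 over all genes.

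The 10 genes with the most members are given with the number per Mb, since a larger territory can hold more members. *Ets1*, which encodes a T lineage transcription factor, had 27 (26.9 per Mb of territory), *Myc*, the driver of growth after activation, 22 (15.3 per Mb), *Foxp1*, a factor of naïve T cell quiescence, 21 (26.9 per Mb), *Cblb*, a ubiquitin ligase that restrains T cell activation, 20 (23.7 per Mb), *Prkcq*, the T cell protein kinase C θ, 18 (41.6 per Mb), and *Cd47*, a surface ligand that inhibits phagocytosis, 15 (47.4 per Mb). *Smad7*, the inhibitory Smad of TGF-β signalling, had 17 members (49.9 per Mb) although its RPKM was 0.24 to 2.26, the lowest of the named genes in the table. *3110018I06Rik* had 18. The members of *Gm3395* on chromosome Y and *Gm15319* were of another kind, since over 50% of the words were repeated in 20 of 20 and 16 of 19 of them, against none of the members at *Ets1*, *Myc*, *Foxp1*, *Cblb*, *Prkcq*, *Smad7*, *Cd47* and *3110018I06Rik*.

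Among lists of T cell genes, the share with at least 1 member was above the 27% of all genes and the 37.8% of genes with at least 1 RPKM in each list. This was not particular to T cell genes, since the share of the 8 housekeeping genes was 62.5%. Per Mb of territory there were 4.45 members over all genes and 9.20 at genes with at least 1 RPKM. All 20 T lineage transcription factors had members, 191 in all (23.1 per Mb). After *Ets1* and *Foxp1* came *Runx1* and *Satb1* with 15 each and *Lef1* and *Bach2* with 14 each. The strongest of their members lay upstream of *Tcf7* at −16701 bp (fold 10.4, 10.9, 7.66 and 7.47) and of *Foxo1* at −70117 bp (9.96, 8.14, 8.29 and 8.09). A member of *Bach2*, a repressor that holds T cells in a naïve state, at chr4:32266705-32267107 with an AP-1 match stood at 13.6%, 79.1%, 62.6% and 36.6%. Of 16 genes of the T cell receptor complex and proximal signalling, 14 had members, 58 in all (41.4 per Mb), led by the adaptor gene *Lcp2* with 9 and the costimulatory receptor gene *Icos* with 7, and *Cd3g* and *Cd5* had none. An intronic *Icos* member at chr1:61046968-61047792 was strongest in WT TGF-β + IL-4, at 47.8%, 8.25%, 57.1% and 30.7%, with 32, 71, 25 and 34 reads.

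The receptors and signalling genes of the cytokines used had unequal numbers. Of 14 cytokine receptor genes 11 had members, 72 in all (43.4 per Mb). *Tgfbr2* had 14, of which the strongest, at −209147 bp, stood at 6.09%, 8.66%, 10.2% and 6.40% (fold 11.9, 10.3, 8.44 and 9.24), whereas *Tgfbr1*, *Il2rb* and *Il2rg* had none. *Il6st*, the shared signalling chain of the IL-6 family, had 12, *Il7r* 8 and *Il4ra*, the IL-4 receptor gene, 4, none of these 4 stronger than 47.6% in any list. The strongest member of *Il12rb2*, a Th1 receptor gene, at −39277 bp, stood at 4.48%, 30.1%, 13.8% and 28.2%, on the strong side in both controls. Of 9 feedback inhibitors 7 had members, 38 in all (36.4 per Mb), and the best by mean rank was the member at −33285 bp from *Tgif1*, which encodes a repressor of Smad-driven transcription (13.5%, 30.8%, 18% and 8.73%), followed by the *Cish* member at 13902 bp printed above (15.5%, 18%, 13.2% and 26.6%). *Skil* and *Smurf2* had none.

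Of 17 transcription factors of Th9 cells and cytokine signalling 16 had members, 54 in all (23.4 per Mb), and *Stat6* had none. *Irf4*, which the Th9 programme needs, had 8. The strongest were an AP-1-bearing intronic member of *Smad3* at 5359 bp (7.30%, 10.4%, 11.3% and 19.4%) and an intronic member at 4818 bp of *Sfpi1*, which encodes the Th9 factor PU.1 (7.28%, 22.6%, 18% and 20.8%). *Dbp* and *E2f8*, the factors that the study examined, had 1 member each. The *Dbp* member, in an intron at chr7:52962963-52963300, stood at 71.4%, 76%, 51.1% and 47.5%, and the *E2f8* member, at −56131 bp and chr7:56192923-56193325, at 24.3%, 30.5%, 31.3% and 66.3%. The first ranked better in both KO libraries and the second worst in KO TGF-β + IL-4.

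Of 12 cytokine genes 8 had members, 17 in all (20.4 per Mb), the lowest density of the lists. *Il4*, *Il13*, *Il17a* and *Il3* had none. *Ifng* had 4, of which that at −21777 bp (chr10:117855932-117856586) stood at 8.45%, 16.1%, 8.18% and 17.6% and that at 29780 bp, with AP-1, RUNX and NFAT matches, at 26.2%, 91.8%, 61.8% and 50.4%. *Il2* had 3, and the strongest, at −47510 bp with RUNX and AP-1 matches, stood at 25%, 49%, 50.0% and 35%. Both of these sites with AP-1 and RUNX matches ranked best in WT control, as did 53.1% of all members. *Il10* had an AP-1-bearing member at 18427 bp (9.57%, 26.7%, 16.5% and 29.5%), and *Il5*, *Il21* and *Csf2* had 2 each and *Tnf* 1. Of 8 housekeeping genes 5 had members, and their 17 members came to 54.9 per Mb of small territories, the highest density of the lists. The strongest was at −14197 bp from *Actb* (chr5:143682224-143682859, fold 12.4, 9.68, 10.5 and 9.04), with an ETS and an AP-1 match.

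Members were often grouped. With gaps of under 15 kb, 6311 (53.4%) stood alone, 4732 (40.0%) formed chains of 2 to 4 and 775 (6.56%) belonged to 130 chains of 5 or more. The longest were 12 members at *Gm3395* (chrY:2851687-2902200), all in repeated sequence, 10 at *Tomm20* (chr8:129350183-129419710), a mitochondrial import receptor gene, and 9 at *Rac2* and *Cyth4* (chr15:78394285-78445414). *Rac2*, a GTPase gene of blood cells, shared this length with chains at *Il6ra* and *She*, *Chd2*, *Gm15319* and *Ets1*. A median rank of 97% showed the *Gm3395* members to be weak, whereas those at *Tomm20* and *Rac2* had medians of 55.3% and 61.9%.

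The 1 kb limit cut through a continuous range. The members just outside it lay 1003 to 1011 bp from the starts of *Zfp395*, *Pnpla6*, *Aff1*, *Tomm40l* and *Pde8a* and had folds of 4.75 to 8.39 in WT control. The regions just inside it, 996 to 999 bp from the starts of *Hivep2*, *Wdr70*, *Atg2b*, *Mga* and *Mnt*, had folds of 4.4 to 5.59 there.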

How the data were processed

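DNase-seq was measured in 1 library for each of 4 conditions and RNA-seq in 3 libraries for each of 8. Per the study's methods and the submitters' processing notes, the authors mapped reads with Bowtie2 to mm9, dropped those of poor mapping quality or in duplicate, and ran MACS2 in its narrow mode on each library alone. Versions are not given in the sources used here. The deposited lists give a fold enrichment at the summit over local background, −log10 of the p-value and of the q-value as the authors' peak caller wrote them, and the offset of the summit. The score column was not used. The authors deposited RPKM per gene for RNA-seq, and these values were used only as medians over all 24 columns, since read counts matched the heading of 2 of 8 columns compared.

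Peaks were merged at an overlap of at least 1 bp. Distances, gene assignment and annotation (by the summit) used protein-coding transcripts of GENCODE vM1 on the mm9 sequence. Ranks are percentiles by fold within a list. In MACS the fold is (reads + 1) over (background + 1), which with the p gave a whole number of reads at the summit for 100% of peaks within 0.01 of the deposited −log10 p. The medians over all peaks were 29 to 34 reads, which limits the precision of a single site. These are MACS pileups, whose read extension is not given in the sources used here, and library totals are unknown. Motifs were exact matches of 24 patterns within 100 bp of the summit, and repeats were 32-base words found elsewhere in mm9. Named sites were the 20 with the best mean rank, the 5 with the largest differences of the same sign in each direction, the 5 on either side of 1 kb, the 10 genes with most members, listed genes, the longest chains and *Il9*. The printed sites with an AP-1 match that ranked lower with TGF-β + IL-4 were chosen after their values were seen. Members and gene lists were chosen with earlier results of these data known. No test was run, because each condition has 1 library. Intervals cover counting error only, and 95% intervals are exact except in the plot of motif shares by strength (normal approximation). Merging, distances, motif search, read recovery and word counts were tested on simulated data. Alternatives were other overlap, distance, q, window, annotation and ranking rules and leaving out each list. Python 3.11.15, numpy 2.4.6, pandas 2.3.3, scipy 1.17.1 and matplotlib 3.10.9 were used.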

Additional observations from a re-analysis of the deposited data

Results flagged for a closer look

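The share of AP-1 matches among the strongest of the 5 groups of members moved in opposite directions with TGF-β + IL-4 in the genotypes, by −10.58 percentage points in WT and by 1.861 in KO. Between genotypes it moved by −5.711 points in control (KO minus WT) and by 6.726 with TGF-β + IL-4. The share of CTCF core matches in the same group moved by 1.311 points with TGF-β + IL-4 in WT and by −2.073 in KO. These results are listed because the direction was opposite in the groups compared, and the difference was not tested, since each share comes from 1 library and members of a library are not replicates. The 4 comparisons share libraries, so the AP-1 values are not independent of each other.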

How the results depend on the processing

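No paired analysis was possible because the results come from no test and each condition has 1 DNase-seq library. Of 90 alternative values for 25 results, 68 stayed within the counting interval or 1.5 times the main count. The AP-1 share difference between members ranked most below and most above control in KO, −1.06 points with a counting interval from −3.12 to 1.01, changed sign to 0.34 with windows of 50 bp, and no other of these 90 values changed sign. Directions also changed within the bin above 55% GC, which is outside the 90 values. There, AP-1 for KO against WT in control was at 9.36% most below and 10.9% most above, against 19.2% and 8.71% in all members. The CTCF core with TGF-β + IL-4 in WT was at 14.9% and 8.84% there, against 7.57% and 10.6% in all members. Subtracting the median rank difference moved the counts of members over 25 points apart from 441 to 193 (lower with TGF-β + IL-4), 34 to 92 (higher), 519 to 208 (lower in KO) and 31 to 101 (higher). The number of members was 9131 with the same number of top peaks from each list and 12053 with distances from the summit, and 12048 to 15509 without 1 of the 4 lists. With windows of 50 bp on either side of the summit the shares of members with a match were 9.95% for AP-1, 7.29% for RUNX and 4.87% for ETS, and the share among members ranked most below minus that among those most above was 15.8 (AP-1, cytokines in WT), 7.36 (AP-1, KO against WT in control), −9.86 (AP-1, KO against WT with TGF-β + IL-4), 3.89 (RUNX, control) and 2.96 (ETS, TGF-β + IL-4) points, against 22.1, 10.5, −13.8, 6.30 and 4.82 with 100 bp. With ranks by −log10 p it was 24.5 (AP-1, WT), 13.1 (AP-1, control), −5.92 (CTCF core, cytokines in WT, main −3.05) and −13.2 (CTCF core, control, main −10.4). In members of 45 to 55% GC it was 24.6 (AP-1, WT) and 6.93 (ETS). The CTCF core share was 11.6% at −log10 q of at least 5, the AP-1 share 14.5% around the WT TGF-β + IL-4 summit, the share in introns or between genes 94.5% by all transcripts (main 96.4%), and the median RPKM of nearest genes 10.1 for genes of at least 1 RPKM (main 2.65, and 2.65 to 2.66 without each replicate). The cause of these shifts was not tested. The repeat-masked alternative was not run, since the sequence used carries no repeat mask, and 11664 members remained without those with over 50% of words repeated. The word count, the subtraction and the alternatives for the share differences were chosen after seeing the data.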

Other observations

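Marker genes of other cell types also had members. *Cd8b1*, which encodes a chain of the CD8 co-receptor, had 1, the NK receptor gene *Klrb1c* was the nearest gene of 5, and the B cell factor gene *Ebf1* and *Myod1* and *Gfap*, genes of muscle and glia, had 1 each at RPKM below 1 in every library. *Il7r*, the receptor gene for IL-7 in naïve and memory T cells, had 8 members at 0.90 to 17.7 RPKM over the libraries, and *Klf2*, a factor of naïve T cell homing, had 3 at 0.95 to 11.8 RPKM.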
